A study of Mus musculus with 6 samples.

Results

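The 9 genes described here write, copy, read or remove methyl groups on cytosine in DNA: Tet1, Tet2, Tet3, Dnmt1, Dnmt3a, Dnmt3b, Uhrf1, Tdg and Mbd2. They were chosen by name, with earlier results of these data known, from a table of 26181 mouse genes. All 9 were found by symbol and passed the filter on low values. The libraries came from primary CD8+ T cells of the spleen of wild-type C57BL/6 mice, which began 1 of 2 diets at 6 weeks of age. In the first group the mice ate a diet labelled ND for 7 weeks, and in the second a diet labelled CDAHFD, a fat-rich feed of defined amino acids without choline that serves as a model of steatohepatitis with liver fibrosis. Each diet had 3 libraries, and both groups share genotype, tissue and feeding time. Neither a purity of the cells nor separate animals for the libraries of 1 diet is stated, so the tests weigh the diet difference against a spread between libraries that could be technical.

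In DNA methylation, the DNMT enzymes place a methyl group on cytosine, mostly where it precedes guanine (a CpG). Dnmt3a and Dnmt3b methylate new sites, and Dnmt1 copies the pattern onto the new strand at replication, guided by Uhrf1, which binds half-methylated DNA. The TET enzymes oxidise methylcytosine with oxygen, iron and 2-oxoglutarate, the base excision enzyme Tdg cuts out the most oxidised forms, and Mbd2 reads methylated CpGs for the NuRD repressor complex. In CD8+ T cells these enzymes are known from the choice between effector and memory states. Loss of Tet2 favours memory-like cells in mouse infection models, and Dnmt3a adds methylation at naive and memory genes as effector cells form.

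The question put to these genes is whether Tet1 differed between the diets in the way Tet2 and Tet3 did. Sequences just upstream of the start sites are shown because CpGs, the sites on which these enzymes act, are dense there in part of the genes. Each run below is the 80 bases before the start site in RefSeq (GRCm38.p6), read 5′ to 3′ on the gene's own strand, with every CpG in capitals. Tet1 lies at chr10:62887325-62887404 on the minus strand, Tet2 at chr3:133544391-133544470 on the minus strand, Tet3 at chr6:83441679-83441758 on the minus strand and Uhrf1 at chr17:56303257-56303336 on the plus strand.
Tet1: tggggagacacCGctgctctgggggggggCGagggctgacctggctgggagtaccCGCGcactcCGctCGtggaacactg
Tet2: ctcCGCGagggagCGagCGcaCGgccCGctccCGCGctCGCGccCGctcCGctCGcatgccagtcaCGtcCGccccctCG
Tet3: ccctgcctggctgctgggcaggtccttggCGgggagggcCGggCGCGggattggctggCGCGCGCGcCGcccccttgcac
Uhrf1: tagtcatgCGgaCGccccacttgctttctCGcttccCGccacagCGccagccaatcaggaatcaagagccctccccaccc
The printed runs hold 6 CpGs for Tet1, 16 for Tet2, 9 for Tet3 and 5 for Uhrf1. Over the 250 bases before the start, Tet1 had 15 CpGs, Tet2 had 51 and Tet3 had 17, against a median of 6 over 32841 such windows. The Tet2 window was thus among the most CpG-dense of these start site windows, with 99.95% of them holding no more. Those of Tet1 (74.56%) and Tet3 (78.32%) were moderately dense. A loose form of the motif for E2F factors, which drive S phase genes, was searched on both strands. This pattern, TTTNNCGC with any base at each N, is wider than the E2F motif itself, and binding was not tested. The pattern occurred in 4.28% of windows. It occurred in 3 of 13 windows of these genes, 1 of Dnmt1 and both of Uhrf1, and as TTTCTCGC from base 25 of the printed Uhrf1 run. The Dnmt1 window belongs to the start farthest from the GENCODE start, at 7265 bases, and the nearest Dnmt1 window had no match. The pattern itself holds a CpG, and the matching windows held 26 (Dnmt1), 10 and 30 CpGs (Uhrf1). The share over all windows was not matched for CpGs. RefSeq and GENCODE place the first base of Tet1 21672 bases apart and that of Tet3 17406 bases apart, and counts per gene do not tell which start was used.

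Tet1, one of the TET genes with a CXXC domain that binds CpGs, fell the most of the 9. Its normalised counts, read counts divided by a factor per library, were 1194, 1101 and 1263 in ND libraries and 513, 438 and 422 in CDAHFD libraries. No values of the diets overlapped, and the highest CDAHFD library stood at 0.466 times the lowest ND library. The mean was 1186 ± 81.5 under ND and 457 ± 48.5 under CDAHFD (SD, n = 3 for each), a level 2.59-fold lower in CDAHFD libraries. The log2 fold change, CDAHFD against ND on log2(normalised count + 1), was -1.38 with an SE of 0.074 (limma adjusted p = 7.19e-15). Only 0.721% of the 15819 tested genes had a value this low or lower.

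Tet2, which lacks a CXXC domain of its own, differed far less. Its normalised counts were 2307, 2225 and 2446 in ND libraries and 2047, 2245 and 2099.5 in CDAHFD libraries. The groups overlapped, since the second CDAHFD library lay above the second ND library. The log2 fold change was -0.13 with an SE of 0.049 (limma adjusted p = 0.0331), and the call depended on the tool and on single libraries. DESeq2 gave an adjusted p of 0.0629, and limma gave 0.067 without ND replicate 1, 0.19 without ND replicate 3, 0.091 without CDAHFD replicate 1 and 0.0978 without CDAHFD replicate 3.

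Tet3, the TET gene with the highest level per length in these libraries, fell by a small amount. Its normalised counts were 8445, 7985 and 8436 in ND libraries and 6592, 7027 and 6868 in CDAHFD libraries. All CDAHFD libraries lay below all ND libraries, at a log2 fold change of -0.28 and an SE of 0.040 (limma adjusted p = 1.25e-06).

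**Figure D1:**
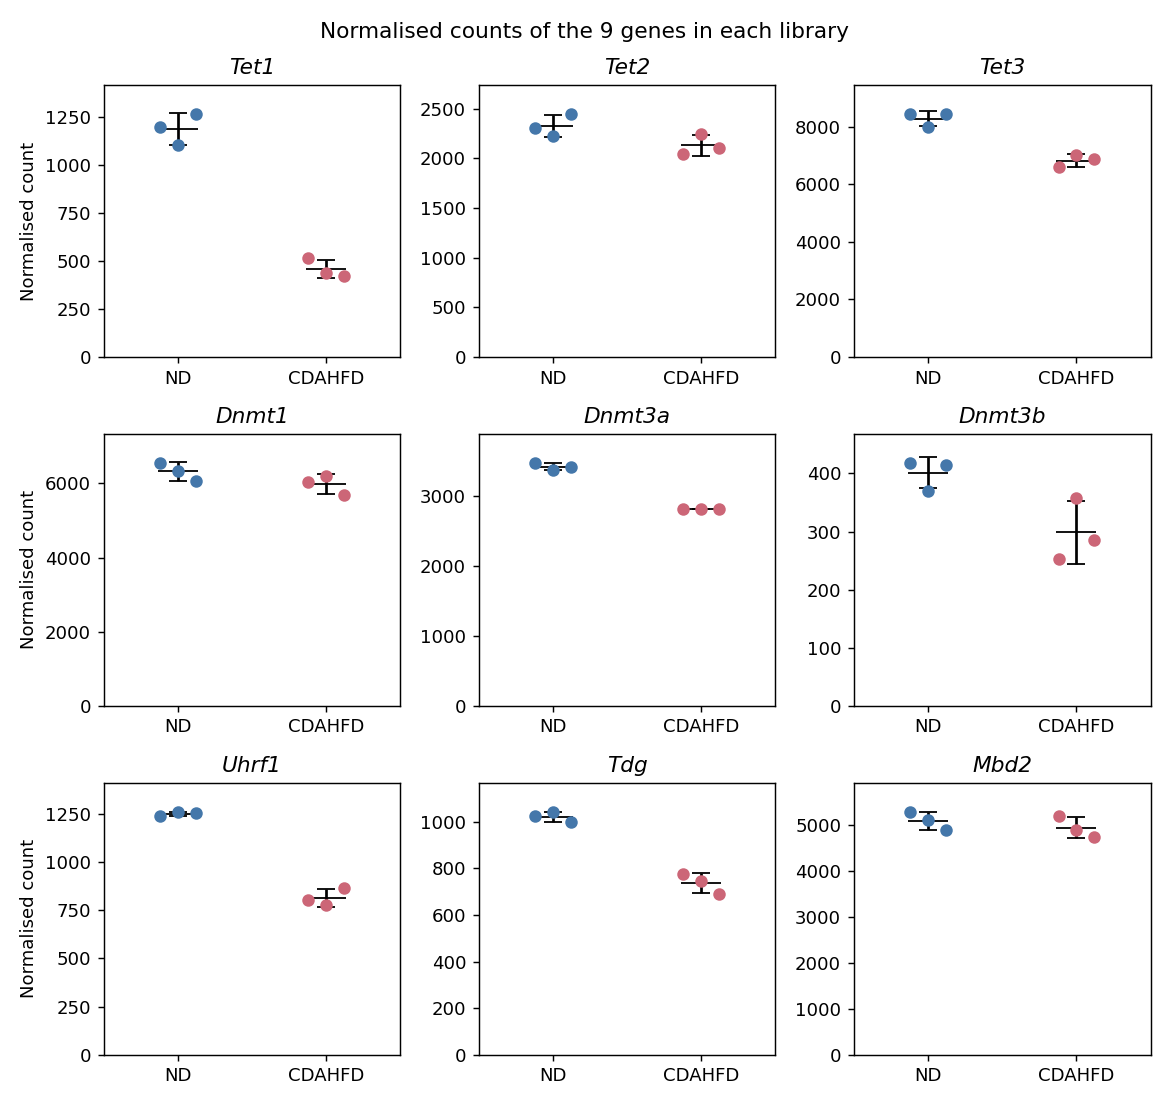
Normalised counts (vertical axes from 0) of each of the 9 genes in the 3 ND libraries (blue) and the 3 CDAHFD libraries (red). Points are libraries, and bars give the mean and SD. Tet1 shows the widest gap, from 1186 to 457, while the groups of Tet2, Dnmt1 and Mbd2 overlap.

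The contrast between Tet1 and its relatives was measured within each library, where any scaling of the library cancels. With 1 added to every count, there were 0.518, 0.495 and 0.517 normalised counts of Tet1 per count of Tet2 in ND libraries, and 0.251, 0.195 and 0.201 in CDAHFD libraries. The ratio was therefore lower in every CDAHFD library, by 1.25 on average on the log2 scale (a difference of -1.25, SE 0.12). Tet1 per count of Tet3 stood at 0.141, 0.138 and 0.15 in ND libraries and at 0.0779, 0.0624 and 0.0616 in CDAHFD libraries. That difference was -1.10 on the log2 scale (SE 0.12), again with no overlap. Tet2 per count of Tet3 moved little and the other way, from 0.281 ± 0.00852 to 0.312 ± 0.00695 (SD, n = 3 for each diet), a log2 difference of 0.15 (SE 0.031). For each of these ratios the exact two-sided permutation test gave p = 0.1, the smallest that 3 against 3 libraries allow, and 0.125 when adjusted over the 5 ratios compared.

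**Figure D2:**
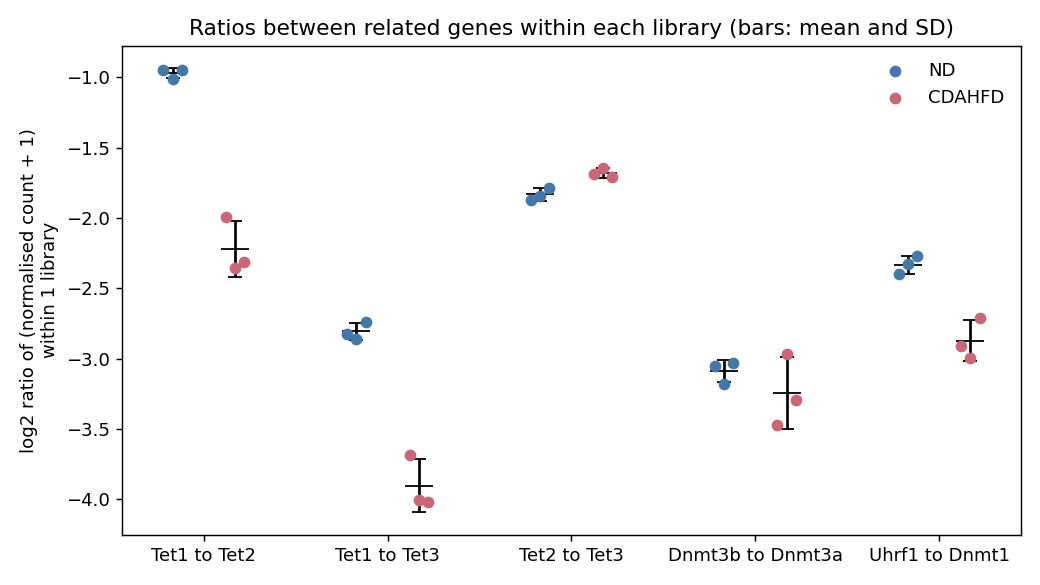
Log2 ratio of the normalised count plus 1 of 1 gene to that of another within each library (vertical axis), for 5 pairs of genes (horizontal axis), in ND (blue) and CDAHFD (red) libraries, with the mean and SD as bars. The ratios of Tet1 to Tet2 and to Tet3 are lower by 1.25 and 1.10 in CDAHFD libraries, and the ratio of Dnmt3b to Dnmt3a overlaps between the diets.

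Per kilobase of merged exons, a length that pools the exons of all annotated transcripts of a gene, Tet1 was the rarest TET transcript. In ND libraries it made up 10.8% ± 0.359 of the summed TET level per kilobase (SD, n = 3), Tet2 19.4% ± 0.404 and Tet3 69.8% ± 0.694. In CDAHFD libraries the share of Tet1 was 5.25% ± 0.683, that of Tet2 22.3% ± 0.437 and that of Tet3 72.4% ± 0.596. Tet3 thus supplied most TET transcript under both diets. The summed TET level per kilobase went from 711 ± 26.4 to 565 ± 16.5 normalised counts per kilobase.

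**Figure D3:**
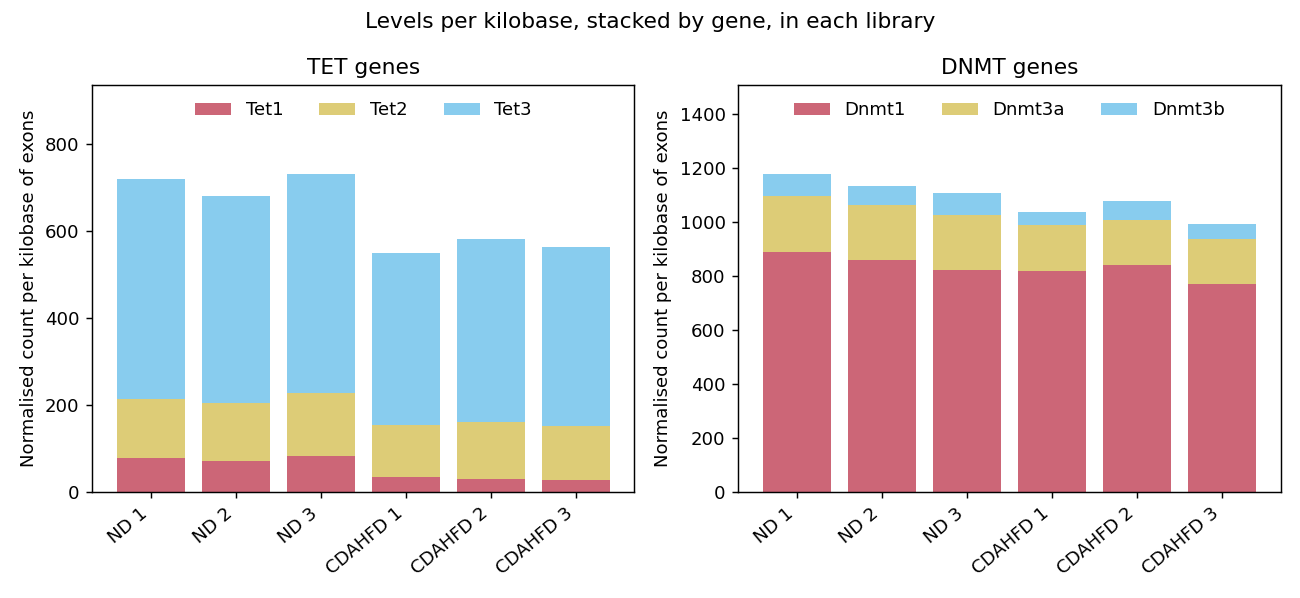
Normalised counts per kilobase of merged exons (vertical axes from 0) in each of the 6 libraries, stacked by gene for the TET genes and the DNMT genes. Tet1 takes 10.8% of the TET bar in ND libraries and 5.25% in CDAHFD libraries, and Dnmt1 forms most of every DNMT bar.

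The maintenance genes differed in their calls. Dnmt1, which copies methylation at replication, had 6552, 6346 and 6066 normalised counts in ND libraries and 6049.8, 6198 and 5678 in CDAHFD libraries. The groups overlapped, at a log2 fold change of -0.081 and an SE of 0.042 (limma adjusted p = 0.119). Uhrf1, its guide to half-methylated DNA, fell from 1239.5, 1262 and 1254 to 802, 777 and 866 normalised counts. The ND values lay within 22.7 counts of each other and all CDAHFD values lay below them, at a log2 fold change of -0.62 and an SE of 0.058 (limma adjusted p = 4.23e-10). Uhrf1 per count of Dnmt1 went from 0.198 ± 0.00879 to 0.137 ± 0.0141 (SD, n = 3 for each diet), without overlap (log2 difference -0.54, SE 0.092). The exact permutation test gave p = 0.1, the smallest possible, and 0.125 when adjusted over the 5 ratios.

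Of the de novo enzymes, Dnmt3a fell from 3466, 3366 and 3402 to 2812, 2809 and 2806 normalised counts. Its groups did not overlap, and the log2 fold change was -0.28 with an SE of 0.041 (limma adjusted p = 1.87e-06), close in size to that of Tet3. Dnmt3b, the rarer de novo enzyme, had 418, 370.4 and 415 normalised counts in ND libraries and 253, 358 and 286 in CDAHFD libraries. It fell, at a log2 fold change of -0.44 and an SE of 0.10 (limma adjusted p = 0.00124). Its second CDAHFD library lay just 12.4 counts below the lowest ND library, and the log2 fold change was -0.57 without that library and -0.32 without CDAHFD replicate 1. The call of Dnmt3b was lost without trend and robust estimation (limma adjusted p = 0.0564). The ratio of Dnmt3b to Dnmt3a overlapped between the diets, with a log2 difference of -0.16 (SE 0.15, exact permutation p = 0.4).

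Tdg, which removes oxidised methylcytosine, fell from 1024, 1044 and 1000.3 to 778, 746 and 691 normalised counts. No values overlapped, and the log2 fold change was -0.47 with an SE of 0.061 (limma adjusted p = 2.45e-07). The reader Mbd2 had 5298, 5110.1 and 4899 normalised counts in ND libraries and 5212, 4895 and 4749 in CDAHFD libraries, with wide overlap (log2 fold change -0.043, SE 0.043, limma adjusted p = 0.439).

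Counted together, 7 of the 9 genes fell, 0 rose and the other 2 were not called, while 47.1% of all tested genes were called, 22.5% of the tested genes lower and 24.6% higher in CDAHFD libraries. The median log2 fold change was -0.28 over the 9 genes and -0.015 over all tested genes. The diets did not overlap for 6 of the 9, all lower, against 54.3% of all tested genes in either direction and 26.5% lower. edgeR also called 7 of the 9 lower, where it called 47.6% of all genes and 22.9% lower, and DESeq2 called 6, where it called 42.7% and 19.6% lower.

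Genes of other spleen cells moved in the same libraries, beside 24.6% of all tested genes called higher and 22.5% lower. All 11 macrophage markers rose, with a median log2 fold change of 3.02, and their summed level went from between 12586 and 13834 to between 116351 and 127370 normalised counts. All 6 erythroid markers rose as well (median 3.11), as did 4 of 5 tested plasma cell markers (median 2.17) and 4 of 6 neutrophil markers (median 1.08). All 9 B cell markers fell (median -0.43), from a summed 24477 to 25397 down to 18196 to 19187, and all 6 dendritic cell markers fell (median -0.68). Of 5 markers of CD4+ T cells 3 rose and 1, Cd4, fell (median 0.63), and of 4 NK cell markers 2 rose and 0 fell (median 0.14). Of the 10 genes of the CD8 T cell marker list, Cd8a and Cd8b1 mark CD8 T cells, and the other 8 are shared with other T cells. Cd8a was abundant under both diets, at 32889 under ND and 27886 under CDAHFD, and 9 of the 10 fell (median -0.41), Cd8a and Cd8b1 among them. No marker of any list was at 0 in all libraries. In such bulk RNA, fewer cells of a type and less RNA per cell cannot be told apart, and the part of these other cells in the differences was not tested.

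When each library was scaled to the mean log2 level of those 10 genes, every log2 fold change moved up by the same 0.36, so which of the 9 genes change sign follows from their values before it. With this scaling 64.8% of tested genes were higher and 4.18% lower in CDAHFD libraries. On that scale Tet1 (log2 fold change -1.02, SE 0.075, limma adjusted p = 9.72e-20) and Uhrf1 (-0.26, SE 0.065, limma adjusted p = 2.31e-04) were still lower. Tet2 (0.23), Dnmt1 (0.27) and Mbd2 (0.31) were called higher. Tet3 (0.076), Dnmt3a (0.075), Dnmt3b (-0.081) and Tdg (-0.12) did not pass the test, with adjusted p from 0.119 for Tdg to 0.476 for Dnmt3b. The marker genes themselves may differ in level per cell, which these libraries do not show.

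**Figure D4:**
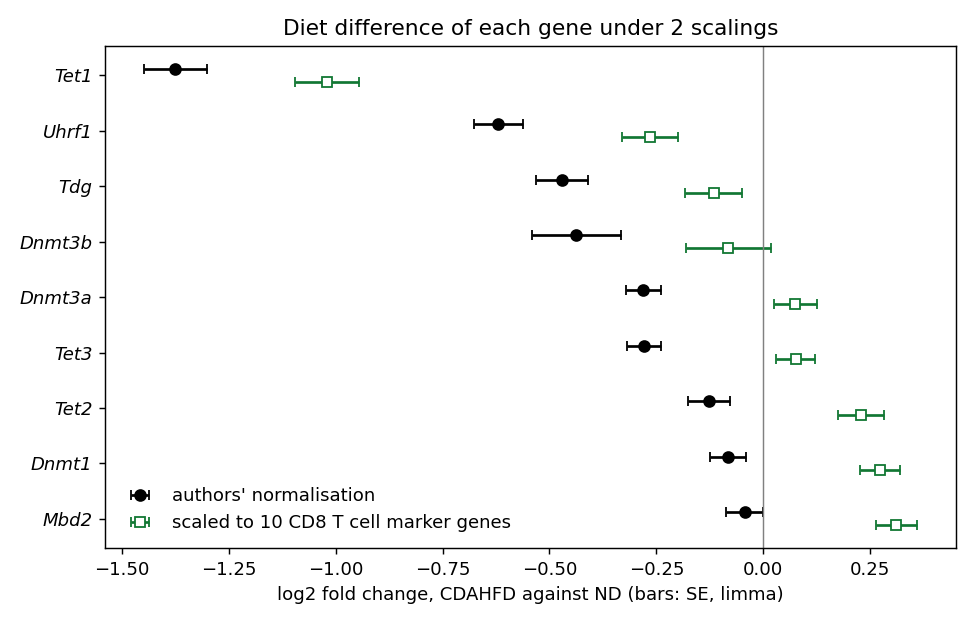
Log2 fold change of each gene, CDAHFD against ND (horizontal axis; bars give the SE from limma), on the authors' normalisation (black circles) and with libraries scaled to 10 CD8 T cell marker genes (open green squares). Tet1 (-1.38 and -1.02) and Uhrf1 (-0.62 and -0.26) are called lower under both, while Tet2, Tet3, Dnmt1, Dnmt3a and Mbd2 change sign.

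In order of level per kilobase in ND libraries, Mbd2 came first (1588 ± 62.1 normalised counts per kilobase, SD, n = 3), then Dnmt1 (857 ± 33.1), Tet3 (496 ± 15.8), Uhrf1 (294 ± 2.7), Dnmt3a (205 ± 3.05), Tdg (190.3 ± 4.05), Tet2 (138 ± 6.6), Dnmt3b (78.6 ± 5.22) and Tet1 (76.7 ± 5.27). Dnmt3b and Tet1 did not differ beyond their spread. This order can depend on the length used. Merged exons hold 16642 bases for Dnmt3a and 4259 for Uhrf1, whereas their longest coding transcripts hold 9685 and 3586 bases. In CDAHFD libraries the order was the same, but Tdg (137 ± 8.19) and Tet2 (126 ± 6.07) now overlapped, and Tet1 (29.6 ± 3.14) lay below Dnmt3b (58.5 ± 10.6) without overlap. The lowest read count behind any of these values was 239, for Dnmt3b, and the highest was 8948, for Tet3.

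Most partners of maintenance methylation fell. Of 8 such genes tested, 1 rose and 5 fell, with a median log2 fold change of -0.31. Over all tested genes, 24.6% rose and 22.5% fell. Pclaf, a PCNA partner whose ubiquitin marks, placed by Uhrf1, draw in Dnmt1, fell from 736 ± 51.4 to 389.7 ± 44.4 (log2 fold change -0.92, SE 0.082, limma adjusted p = 1.98e-10). Cdca7 and Hells, which together remodel nucleosomes for maintenance methylation, fell from 631 ± 1.52 to 374 ± 17.3 and from 829 ± 64.3 to 553 ± 37.1. Cdca7l, the close relative of Cdca7, fell from 953 to 699.7 normalised counts, whereas Uhrf2, the close relative of Uhrf1, went from 2545 to 2771 and was called higher (log2 fold change 0.12, SE 0.045). The call of Uhrf2 was lost with equal totals, without trend and robust estimation, and without ND replicate 1, ND replicate 3, CDAHFD replicate 1 or CDAHFD replicate 3, each of which left 0 of the 8 genes higher. With the CD8 T cell marker scaling, 3 of these 8 genes were lower and 4 higher, beside 4.18% and 64.8% of all tested genes.

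The products of S phase genes copy DNA while Dnmt1 and Uhrf1 act. Of 24 such genes 19 fell and 0 rose (median -0.26), beside 22.5% and 24.6% of all tested genes. Among them were the ribonucleotide reductase subunit Rrm2, from 781 ± 10.4 to 565 ± 31.1, and the replication helicase factor Cdc45, from 255 ± 23.3 to 161 ± 2.67 normalised counts. The helicase subunits Mcm7 and Mcm5 fell from 2783 to 2316 and from 2314 to 1945. Measured against the mean log2 level of these 24 genes, Uhrf1 differed by -0.32 between CDAHFD and ND libraries and Tet1 by -1.08, both without overlap. On the same measure Dnmt1 was higher by 0.21, without overlap, as was Mbd2 by 0.25, and Tdg differed by -0.18, also without overlap. Tet2 (0.17), Dnmt3b (-0.14), Tet3 (0.016) and Dnmt3a (0.015) overlapped between the diets. The mean of the 24 genes itself differed by -0.295, so this measure moved every log2 fold change up by the size of that fall. Dnmt1 and Mbd2 overlapped between the diets and were not called before it. The share of all tested genes without overlap on this measure was not counted. With the CD8 T cell marker scaling, 1 of the 24 genes was lower and 8 were higher, beside 4.18% and 64.8% of all tested genes.

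Of 8 tested genes around the TET enzymes, 3 rose and 3 fell (median -0.094), beside 24.6% and 22.5% of all tested genes. Cxxc4 was not analysed here. Cxxc5, a CXXC protein that binds CpG-rich DNA and Tet2, fell from 1107 ± 20.6 to 507 ± 5.69 (log2 fold change -1.12, SE 0.061, limma adjusted p = 3.94e-15). The cytosolic enzyme Idh1, which makes 2-oxoglutarate, rose from 389 ± 37.8 to 964 ± 68.5 (log2 fold change 1.31, SE 0.076, limma adjusted p = 1.73e-14), and its mitochondrial relative Idh2 fell from 1432 ± 78.2 to 1033 ± 33.2. Qser1, which guards CpG-rich regions together with TET1 in human cells, rose from 526 to 674 normalised counts. Macrophage markers rose by a median of 3.02 and dendritic cell markers had a median of -0.68 beside these genes, and the part of such cells in the values of Idh1 and Cxxc5 was not tested. With the CD8 T cell marker scaling, 1 of the 8 genes was lower and 5 were higher, beside 4.18% and 64.8% of all tested genes.

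Of 14 genes of base excision repair and the Gadd45 family, Gadd45b and Neil2 were called higher and 6 genes lower, with a median of -0.18. Without trend and robust estimation 3 were lower. Among all tested genes, 24.6% were called higher and 22.5% lower in the main fit. The repair enzyme Parp1 stood at 4468 ± 94.3 under ND and fell to 3739 ± 19.5 (a log2 difference of -0.26, SE 0.040), the uracil glycosylase Ung fell from 509 to 394, and the glycosylase Neil2, low under both diets, rose from 27.2 to 57.7. Gadd45b, a stress-induced gene linked to demethylation, rose to 697 ± 46.2 from 479 ± 23.1 (a log2 difference of 0.54, SE 0.073). With the CD8 T cell marker scaling, 0 of the 14 genes were lower and 7 higher, beside 4.18% and 64.8% of all tested genes.

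Of the readers of methylated DNA and the MBD family members other than Mbd2, 4 of 9 rose, 0 fell and 5 were not called (median 0.045). Among all tested genes, 24.6% rose and 22.5% fell. The count of 4 was 2 without ND replicate 3, 2 without CDAHFD replicate 2 and 1 without trend and robust estimation, and without ND replicate 2 there were 3 higher and 1 lower. Zbtb38, a zinc finger protein that binds methylated CpGs, rose from 1187 ± 23.2 to 1536 ± 40.6 (log2 fold change 0.37, SE 0.051, limma adjusted p = 5.50e-07). Mbd6 rose from 1969 to 2382, Mbd1 from 2372 to 2592 and Zbtb4 from 2889.8 to 3131. Of 13 genes of NuRD, the complex that Mbd2 recruits, 8 fell and 0 rose (median -0.11), and 4 were lower without trend and robust estimation. The deacetylases Hdac1 and Hdac2 fell from 4392 ± 101 to 3245 ± 120.0 and from 2401 ± 118 to 1956 ± 137, the remodelling ATPase Chd4 from 19651 to 17492 and Mta2 from 7827 to 7029.8. With the CD8 T cell marker scaling, 11 of the 13 NuRD genes and 9 of 9 readers were higher, beside 64.8% of all tested genes.

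Of 6 tested genes linked to de novo methylation, 3 fell and 0 rose (median -0.081), and Dnmt3l did not reach the tested level. Over all tested genes, 22.5% fell and 24.6% rose. The histone H3K36 methyltransferases Setd2, Nsd2 and Nsd1, whose mark guides Dnmt3a and Dnmt3b, fell from 6242 to 5433, from 1657 to 1443.5 and from 12055 to 10919 normalised counts. With the CD8 T cell marker scaling, 0 of these 6 genes were lower and 5 higher, beside 4.18% and 64.8% of all tested genes.

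**Figure D5:**
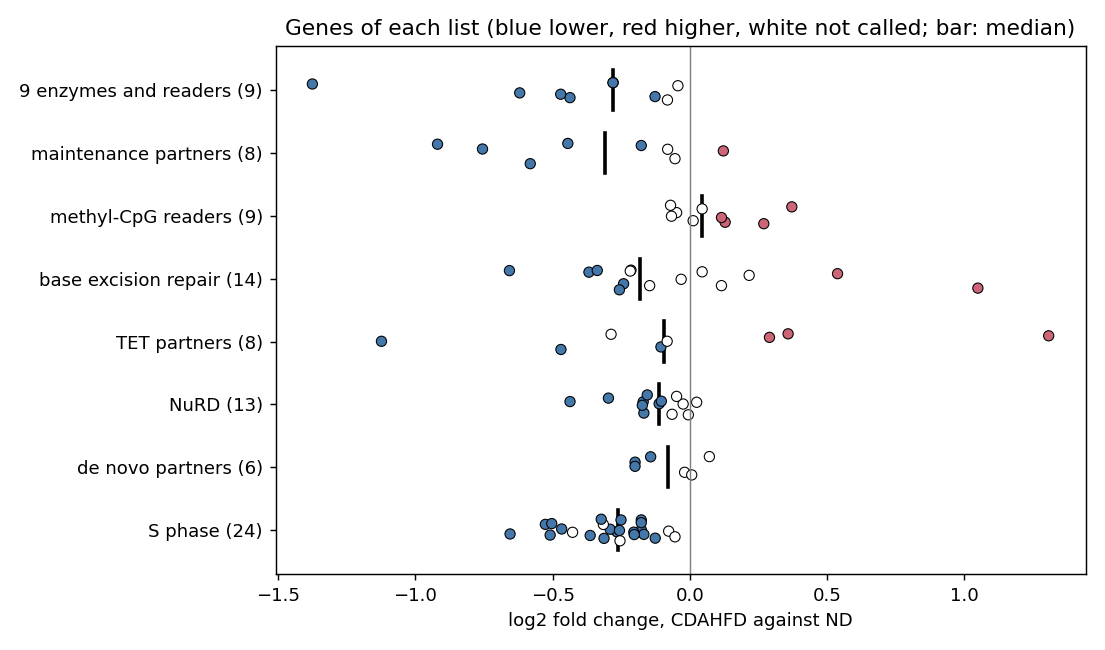
Log2 fold change, CDAHFD against ND (horizontal axis), of each tested gene of the 9 and of 7 lists around them, with the number of genes in brackets. Blue points were called lower, red points higher and white points not called, and the vertical bars are medians, from -0.31 for maintenance partners to 0.045 for methyl-CpG readers.

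The genes whose pattern over the 6 libraries lay nearest to each of the 9 were ranked by the distance between log2 values centred on each gene's mean, among 12940 genes. Nearest to Tet1 were Rps3a3 (distance 0.185), Cdk5rap1 (0.187), a modifier of transfer RNA, and Brdt (0.193), a bromodomain gene known from testis. Nearest to Uhrf1 were the dendritic cell and progenitor receptor Flt3 (0.0694), the interferon-induced Ifit3 (0.0775) and Bend5 (0.0858). Tdg lay nearest to the T cell receptor chain gene Cd3g (0.0328), followed by Rpl10a-ps1 and Rpl41. Tet2 was nearest to Kmt2c, Cplane1 and Smarcal1, and Tet3 to Zfp775, Fryl and Tbxa2r. Dnmt1 was nearest to Zfp84, Terf2 and Brwd3, Dnmt3a to H2-T10, Parp1 and Peli1, Dnmt3b to Caskin2, Trav14-2 and Ttc30a1, and Mbd2 to Fam32a, Got2 and Eif3a. These likenesses describe 6 libraries that fall into 2 diets, so any gene with a diet difference of the same size lies near.

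The 9 genes lie on 8 chromosomes in mm10. Tet1 (chromosome 10, 62804570 to 62908996) and Tdg (chromosome 10, 82629828 to 82650799) share 1, far apart. Some reads could belong to copies or neighbours. For Tdg, 3 processed pseudogenes in the table matched its transcript at 98.7% to 99.3% identity over at least 1193 bases, of which Gm9855 was the highest, at 39.7 ± 14.4 under ND and 24.5 ± 7.58 under CDAHFD, far below Tdg itself. Uhrf1 has such a copy in Gm5648, at 2.97 and 2.23 normalised counts under ND and CDAHFD. A less alike copy of Uhrf1, Gm15953 (88.8% identity over 1175 bases), stood at 15.0 ± 2.89 and 16.4 ± 5.55. Dnmt3b matched Dnmt3c at 93.9% identity, which stood at 0.347 and 1.59. Glt8d2, which shares 367 exon bases with Tdg on the opposite strand, stood at 34.3 ± 1.48 and 26.7 ± 8.02, and without a stated strand setting those reads cannot be told apart. Counts per gene also pool all transcript forms, such as the long and short forms of Dnmt3a.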

How the data were processed

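RNA of splenic CD8+ T cells was sequenced in 6 libraries, 3 per diet. Per the labels' protocols, TRIzol was used to extract total RNA, and a whole-RNA or an mRNA kit served for the libraries, without a statement of which. Per the submitters' processing notes the build was mm10, whereas for aligner, counter, strand setting and annotation the entry is: not given in the sources used here. Deposited by the authors were signal values, normalised counts in which each library's reads are divided by its own factor. All values (100%, within 0.001) were whole multiples of the smallest in their column, so reads could be recovered (25314988 to 28067393 per library). The columns spell the second diet CDHFD and were matched to CDAHFD, the only other diet.

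Ensembl IDs were matched to symbols for 26147 of 26181 genes. Exon lengths and positions came from GENCODE mouse release M21, and start site sequences from RefSeq (GRCm38.p6), which matched 8 of the 9 genes. limma 3.58.1 (trend and robust estimation, R 4.3.3) was fitted to log2(normalised count + 1) of 15819 genes with a mean of at least 10, with Benjamini-Hochberg adjustment over all of them. A gene "rose" or "fell" at an adjusted p under 0.05. Such folds understate changes of low genes. Recovered reads were tested with edgeR 4.0.16 and DESeq2 1.42.0, and calls by edgeR numbered 7536. On simulated counts the fit recovered 25 of 50 genes changed 1.3-fold, 37 of 50 at 1.5-fold, 40 of 50 at 2-fold and 45 of 50 at 4-fold. Of its 154 calls there, 7 were false. The 9 genes and all lists were chosen with earlier results of these data known. Named were all 9 genes, up to 4 called genes of each list with the smallest adjusted p, and the 3 nearest patterns of each. Cd4, Cd8a, Cd8b1, Uhrf2, Gm9855, Gm5648, Gm15953, Dnmt3c and Glt8d2 were named after their values were seen. Scaling to CD8 T cell markers was chosen after seeing the data. Same-numbered libraries did not deviate together (correlations 0.04, -0.05 and 0.06), so the numbers were not used as pairs.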

Additional observations from a re-analysis of the deposited data

How the results depend on the processing

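Under 16 alternative settings, all 144 values of the 9 genes kept their direction, and 6 of the genes kept their call in each. The call of Tet2 was lost with TMM scaling (log2 fold change -0.11, limma adjusted p = 0.0614), without trend and robust estimation (-0.13, adjusted p = 0.155), in DESeq2 (-0.12) and with the replicate block (-0.13, adjusted p = 0.0505). Leaving out 1 library gave -0.16 to -0.090 for Tet2, -0.57 to -0.32 for Dnmt3b and -1.46 to -1.32 for Tet1. Dnmt1 passed the test with equal totals (-0.10, adjusted p = 0.0443), and Dnmt3b failed it without trend and robust estimation (-0.44, adjusted p = 0.0564). That last fit also left 6 genes of the 7 lists higher and 30 lower, against 10 and 43 before. The replicate block changed no other call among the 9 genes. The 40 ratios recomputed with other pseudocounts or without a library kept their direction, at -1.36 to -1.18 for Tet1 to Tet2. None could pass the threshold in a design of this size.

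Scaling to the CD8 T cell markers, added after seeing the data, reversed Tet2 (0.23), Tet3 (0.076), Dnmt1 (0.27), Dnmt3a (0.075) and Mbd2 (0.31), and took the call from Dnmt3b (-0.081) and Tdg (-0.12). It called 10248 genes higher and 661 lower over the whole table, 2 of the 9 genes lower, and 45 genes of the 7 lists higher and 5 lower, each gene counted once since 4 of them are on more than 1 list. The cause of these changes was not tested, beyond that this scaling lifts every gene by the fall of its reference genes.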
